A study of Mus musculus with 8 samples.

Results

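Somatostatin and 3 further genes used to recognise pancreatic δ-cells were followed through isolated mouse islets profiled by single-cell RNA sequencing. The 4 genes, Sst, Rbp4, Ghsr and Hhex, were taken by name and made up 4 of the 19945 genes of the count table. They were read in every deposited cell class in both conditions. The study treated wild-type mice with a focal adhesion kinase inhibitor (FAKi, PF-562271), a drug given at 50 mg/kg 2 times a day for 3 weeks, or with vehicle alone. Islets were isolated 10 days after the last dose from 5 mice per group that were pooled. The mice were between 6 and 12 weeks old when the experiment started, with the strain of these animals not given in the sources used here. Each condition was 1 droplet library run on 4 lanes, so the comparison of FAKi with vehicle had no replicate. Every interval below is a 95% interval of counting error only, and no test across conditions was possible.

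δ-cells are a minority of the endocrine islet and act on their neighbours by paracrine release of somatostatin, the peptide encoded by Sst, which restrains secretion of both insulin and glucagon. Hhex encodes a homeodomain transcription factor needed for the δ-cell lineage and also used in ductal, liver and endothelial development. Ghsr encodes the receptor for ghrelin, through which ghrelin can drive somatostatin release. Rbp4 encodes the secreted carrier of retinol, best known from liver and fat and enriched in mouse δ-cells.

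In the GENCODE annotation of GRCm38, Sst lies at chr16:23889573-23890958 on the minus strand and Ghsr at chr3:27371351-27378010 on the plus strand. Hhex (chr19:37434810-37440731, plus strand) and Rbp4 (chr19:38116629-38125281, minus strand) share a chromosome, with 675897 bases between them. The RefSeq windows of GRCm38.p6 from 250 bases before to 50 bases after a start site are shown for Sst, Ghsr and Hhex. Ghsr transcripts lay almost wholly in somatostatin-rich cells, and ductal cells held Hhex too. Capitals mark TGACGTCA (the cyclic AMP response element) and TAAT (a homeodomain core), searched on both strands with no overlap between them.
Sst, chr16:23890795-23891094, minus strand: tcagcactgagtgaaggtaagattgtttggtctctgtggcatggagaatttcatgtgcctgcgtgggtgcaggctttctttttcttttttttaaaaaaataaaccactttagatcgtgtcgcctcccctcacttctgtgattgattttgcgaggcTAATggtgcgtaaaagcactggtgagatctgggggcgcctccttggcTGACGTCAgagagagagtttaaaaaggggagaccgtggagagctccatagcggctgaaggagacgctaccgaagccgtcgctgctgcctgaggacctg
Ghsr, chr3:27371101-27371400, plus strand: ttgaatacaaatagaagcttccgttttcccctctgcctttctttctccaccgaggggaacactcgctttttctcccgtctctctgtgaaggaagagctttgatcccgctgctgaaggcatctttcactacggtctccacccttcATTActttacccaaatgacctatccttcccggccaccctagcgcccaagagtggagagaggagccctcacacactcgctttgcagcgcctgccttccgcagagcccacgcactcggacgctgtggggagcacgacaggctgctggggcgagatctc
Hhex, chr19:37434591-37434890, plus strand: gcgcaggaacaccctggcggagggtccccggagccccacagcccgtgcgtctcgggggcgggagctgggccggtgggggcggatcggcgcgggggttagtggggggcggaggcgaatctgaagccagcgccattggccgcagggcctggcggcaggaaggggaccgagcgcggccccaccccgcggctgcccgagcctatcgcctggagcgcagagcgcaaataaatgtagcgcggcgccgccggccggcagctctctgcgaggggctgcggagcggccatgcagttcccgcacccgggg
The TGACGTCA match began 48 bases before the Sst start site, and 1.79% of the 32851 promoter windows of the same length held this word. A TAAT match on either strand stood 95 bases before the start in Sst and 106 bases before it in Ghsr, and 58.0% of all windows held one. The Hhex window held neither word and was 75.7% G and C, against 50.3% for Sst and 56.3% for Ghsr. For Rbp4, RefSeq gave 2 start sites, and the window of the second held TATAAA 28 bases before its start. Of all windows, 13.6% held this word at any position on either strand. These are matches of letters only.

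The table held 3776 vehicle and 3183 FAKi cells in 12 named classes and 17 clusters, with a median of 10101.5 and 13688 transcript molecules (unique molecular identifiers, UMIs) per cell. All 6959 cells were under the study's limit of 8% mitochondrial counts, and the labels put the cells used at 8832 and 8437. Between the libraries 4 cell barcodes recurred. Levels are CPM, the UMIs of a gene summed over a group of cells, divided by all UMIs of these cells and scaled to 1000000. Levels are compared between groups of cells and not between genes.

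The deposited δ class did not hold cells of 1 kind. It joined cluster 6, with 188 vehicle and 195 FAKi cells, to cluster 8, with 140 and 163 cells. In cluster 6, Sst reached 213487 CPM in vehicle and 219821 CPM in FAKi, and every cell held at least 252 Sst UMIs. In cluster 8 the pooled Sst level was 6909 and 7524 CPM, but the median cell had 1 Sst UMI in vehicle and 2 in FAKi. Cluster 8 was led instead by Ppy, which encodes pancreatic polypeptide, at 278292 and 263888 CPM, followed by Serpina7 and by Pyy, which encodes peptide YY. The data therefore went against the δ label for cluster 8, which is called here by its number. Of the further δ-cell markers, Ptprz1, a receptor tyrosine phosphatase, stood at 192 and 194 CPM in cluster 6 and 2.54 and 1.36 CPM in cluster 8. Crhr2, a receptor for urocortins, was at 7.81 and 15.0 CPM against 0 and 0.340 CPM. Casr, the calcium-sensing receptor, separated the clusters less, at 15.6 and 19.2 CPM against 8.46 and 9.18 CPM. Lepr, the leptin receptor, had no UMI in cluster 6 in either library.

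Sst was highest in the δ class, at 108920 CPM in vehicle and 107072 CPM in FAKi. The α class came next at 13672 and 12608 CPM, which put the δ class 7.97-fold (interval 7.89 to 8.04) and 8.49-fold (8.43 to 8.56) above it. Among the classes that followed, the order changed with the library. In vehicle it ran ductal (1499 CPM), acinar 1 (1255), endothelial (991), β (767), pericyte (609) and fibroblast (356), each interval clear of the next, while macrophages (103 CPM), acinar 2 (102), B cells (64.7) and T cells (53.7) overlapped their neighbours. In FAKi the macrophages came next at 3035 CPM, ahead of acinar 1 (2510), fibroblasts (1880), β-cells (764) and ductal cells (621), again with intervals clear of one another. Acinar 2 cells (182), pericytes (165) and endothelial cells (152) overlapped their neighbours, and so did T cells (52.3) and B cells (52.1).

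Single droplets set much of that order. In the vehicle endothelial cluster 3, 96.3% of Sst UMIs were in 1 cell, in FAKi macrophages 96.2%, in FAKi fibroblasts 90.4% and in FAKi ductal cells 86.0%. Within the α class, cluster 5 had only 86.3 and 126 CPM, and cluster 9 had 58406 and 45730 CPM. The second place of the α class thus came from cluster 9, whose cells are described below.

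**Figure D1:**
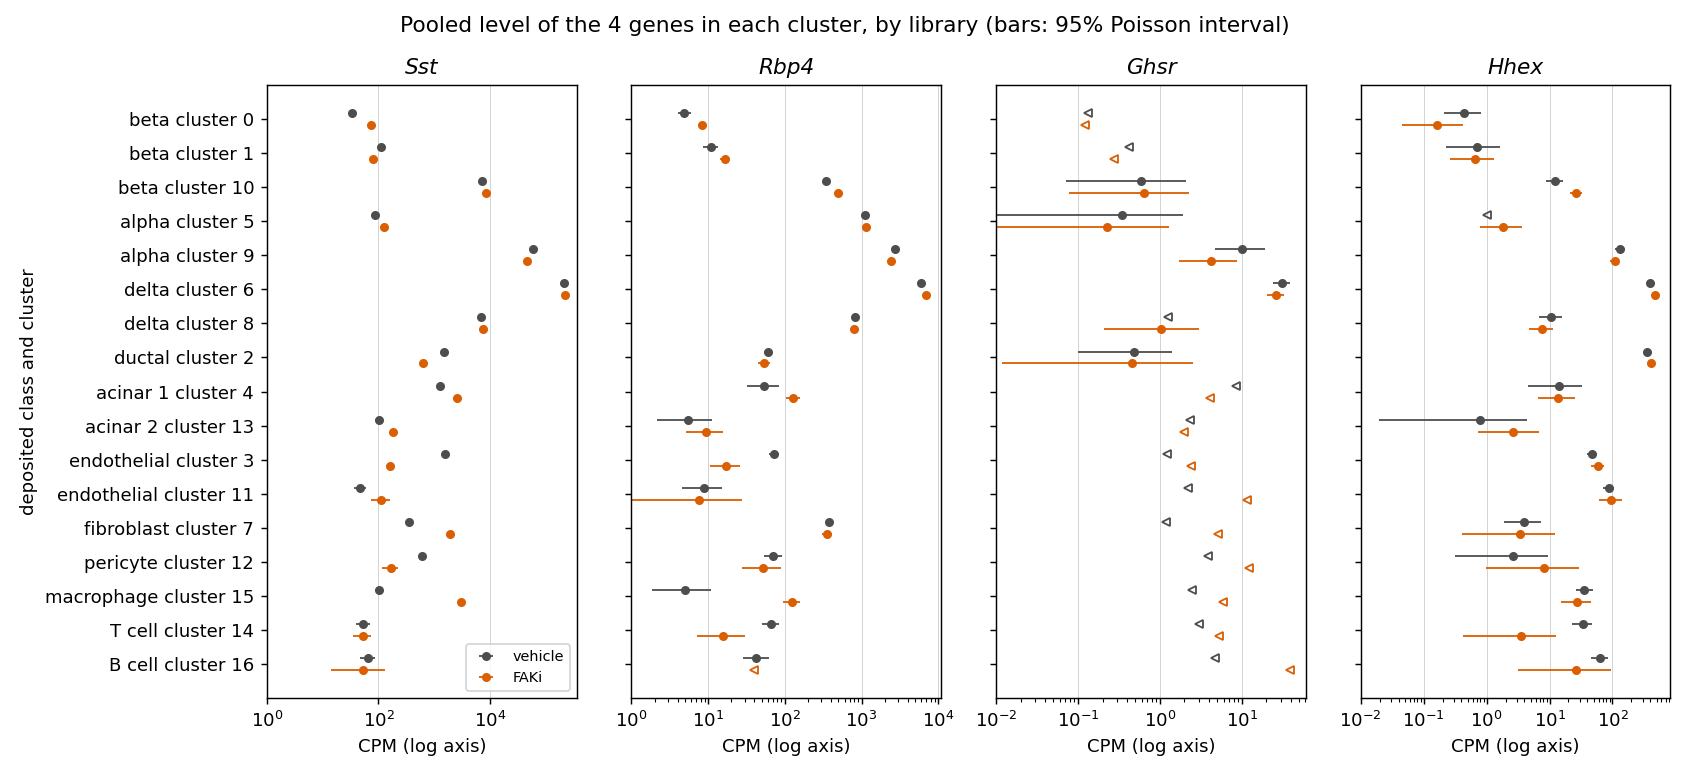
Pooled CPM of Sst, Rbp4, Ghsr and Hhex (log axes, ranges differ by gene) in each of the 17 clusters, with vehicle in grey and FAKi in orange. Bars are 95% Poisson intervals and open triangles mark the limit that a count of 0 allows (3 UMIs). Sst peaks in δ cluster 6 at 213487 and 219821 CPM, while Hhex is nearly as high in ductal cells as in δ cluster 6.

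Rbp4 was shared with α-cells and fibroblasts. The δ class had 3382 CPM in vehicle and 3666 CPM in FAKi, the α class 1484 and 1499 CPM, and fibroblasts 381 and 356 CPM. In each library these intervals were clear of one another and of the class that followed. Inside the δ class the level was 6015 and 6925 CPM in cluster 6 and 813 and 788 CPM in cluster 8. α cluster 5, which had almost no Sst, had 1097 and 1137 CPM of Rbp4, so δ cluster 6 exceeded it 5.48-fold (5.27 to 5.70) and 6.09-fold (5.90 to 6.28). β cluster 0 had 4.90 and 8.41 CPM.

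Ghsr was rare, with 168 UMIs in all, of which 71 vehicle and 68 FAKi UMIs were in cluster 6, at 30.8 CPM (24.1 to 38.9) and 26.2 CPM (20.3 to 33.2). α cluster 9 had 9 and 7 UMIs, ductal cells 3 and 1, and α cluster 5 had 1 in each library. Endothelial and immune cells, which should lack the receptor, had none, so the cluster 6 level was at least 67.8-fold higher in vehicle and at least 23.2-fold higher in FAKi, taking 3 UMIs as the limit. The intervals of neighbouring classes in the order α, ductal and β overlapped, while those of α and β did not.

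Hhex was highest outside the δ class. Ductal cells had 347 CPM (333 to 362) in vehicle and 413 CPM (387 to 441) in FAKi, against 202 CPM (190 to 216) and 227 CPM (214 to 239) in the δ class, a δ-to-ductal ratio of 0.582 and 0.548. The order depended on cluster 8, which had only 10.6 and 7.48 CPM. Cluster 6 alone had 399 and 475 CPM and exceeded the ductal level 1.15-fold in both libraries (1.06 to 1.24 in vehicle, 1.05 to 1.25 in FAKi). Endothelial cells followed at 61.6 and 64.5 CPM, with the vehicle B cells overlapping them at 63.1 CPM. β cluster 0 was at 0.442 and 0.164 CPM.

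Cell by cell, the share of cluster 6 cells with a UMI differed between genes, which does not measure how confined each gene is to that cluster. Each cell was thinned to 5000 UMIs so that depth was equal, which kept 179 of 188 vehicle and 192 of 195 FAKi cells of cluster 6. Sst averaged 1049 of 5000 UMIs in vehicle (coefficient of variation over cells 24.7%) and 1079 in FAKi (21.7%), and ranged from 141 to 1792 and from 386 to 1557. Rbp4 averaged 29.7 and 34.0 UMIs, with a coefficient of variation of 44.8% and 43.6%. Hhex averaged 2.08 and 2.44 UMIs and Ghsr 0.151 in both. Every thinned cell of cluster 6 held Sst and Rbp4 together. Sst, Rbp4 and Hhex were found together in 152 of 179 vehicle cells (84.9%, Clopper-Pearson interval 78.8 to 89.8) and 168 of 192 FAKi cells (87.5%, 82.0 to 91.8). All 4 genes were found in 20 (11.2%) and 24 cells (12.5%). Ghsr alone had a UMI in 14.5% and 14.1% of thinned cells and in 29.3% and 29.7% of cells at full depth, so its absence from a cell is not resolved at this depth.

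The same shares in other groups gave the background. In endothelial and immune cells thinned to 5000 UMIs, 18.8% of vehicle and 34.1% of FAKi cells had a Sst UMI, 3.04% and 5.78% a Rbp4 UMI, and none a Ghsr UMI. Unthinned, their Sst share was 25.6% and 54.3%, at a median depth of 5186 and 4883 UMIs, against 12519.5 and 12747 UMIs in δ cluster 6. The thinned Sst shares of β-cells (15.2% and 26.2%), ductal cells (18.6% and 40.4%) and fibroblasts (18.1% and 37.3%) stood beside those of endothelial and immune cells, and acinar 2 cells were higher at 37.5% (25.7 to 50.5) and 56.9% (44.7 to 68.6). In acinar 1, 8 and 19 cells reached this depth. Thinned to 1000 UMIs instead, 25 of 135 vehicle acinar 1 cells (18.5%) and 117 of 208 FAKi acinar 1 cells (56.2%) had a Sst UMI, against 6.06% (4.61 to 7.80) and 18.8% (14.8 to 23.4) of endothelial and immune cells at the same depth. Acinar 2 cells were at 5.81% and 18.4% at this depth, so they stood above endothelial and immune cells at 5000 UMIs and beside them at 1000 UMIs, while acinar 1 cells stood above them. The source of these UMIs was not tested. Rbp4 in α-cells (94.8% and 97.0%) and fibroblasts (65.3% and 51.0%), and Hhex in ductal cells (74.3% and 83.1%), were far above the shares of the same gene in endothelial and immune cells. Hhex in endothelial and immune cells, at 19.8% and 23.7%, is no background value, since endothelial cells are known to use this gene.

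**Figure D2:**
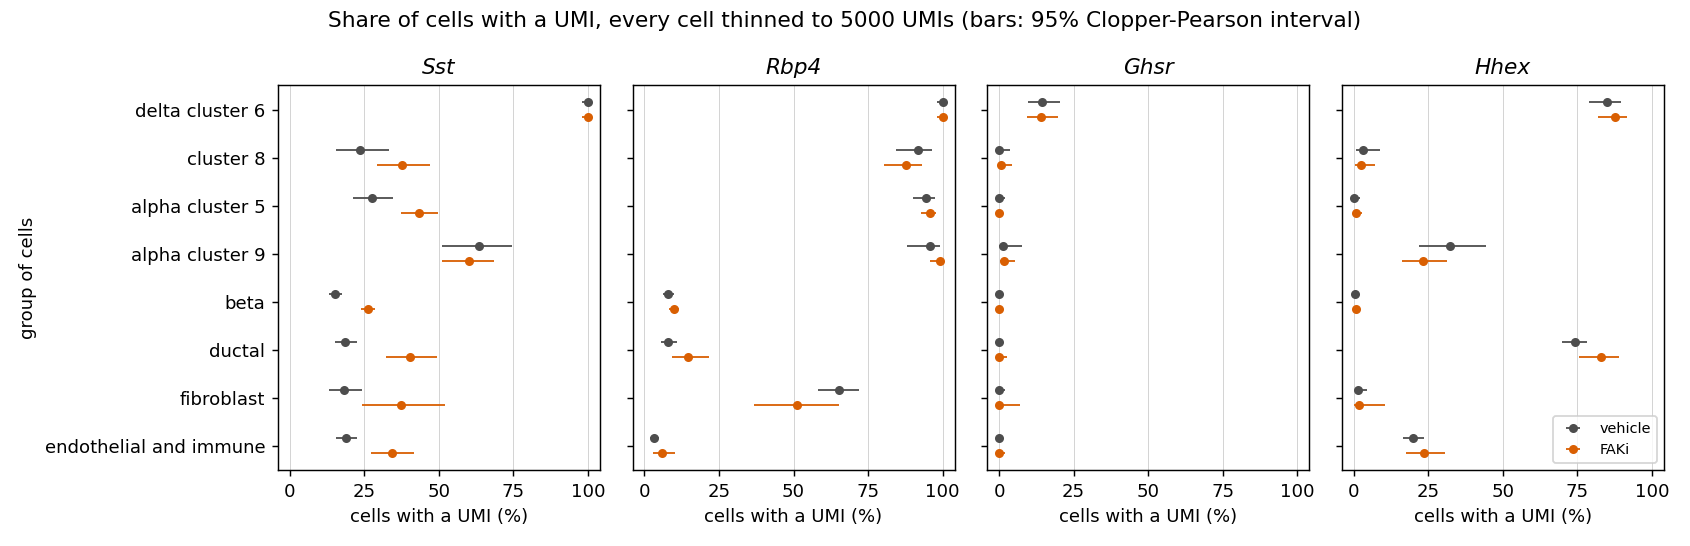
Share of cells (%) with at least 1 UMI of each gene after every cell was thinned to 5000 UMIs, in 8 groups of cells, vehicle in grey and FAKi in orange, with 95% Clopper-Pearson intervals. Sst and Rbp4 are in all cells of δ cluster 6, Hhex in 84.9% and 87.5% of them, and the Sst share of β, ductal, fibroblast and endothelial and immune cells is higher in FAKi than in vehicle, while that of α cluster 9 is not.

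Cells rich in somatostatin were not confined to the δ class. At a limit of 30000 CPM, set after the distribution was seen and passed by every cell of cluster 6, 269 vehicle and 292 FAKi cells were Sst-rich, and they held 99.3% and 98.7% of the Sst UMIs of their library. Only 6 vehicle and 12 FAKi cells lay between 10000 and 30000 CPM. Of the Sst-rich cells, 56 vehicle and 72 FAKi cells stood outside the δ class, or 47 and 70 once cells called as doublets were removed.

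Most of these were in α cluster 9. Among its cells, 32 of 87 in vehicle (36.8%, 26.7 to 47.8) and 50 of 168 in FAKi (29.8%, 23.0 to 37.3) were Sst-rich, and none of them was called a doublet. Their median Gcg level, glucagon being the α-cell hormone, was 307 and 812 CPM, against 247657 and 248124 CPM in the remaining cells of the cluster. The other genes followed the same division. They are δ-cell genes too and were chosen with earlier results of these data known, so this is no independent support. All 118 vehicle and 177 FAKi Hhex UMIs of α cluster 9 were in its Sst-rich cells, and so were all 9 and 7 Ghsr UMIs. At equal depth Hhex was found in 23 of 27 Sst-rich vehicle cells (85.2%) and 30 of 33 Sst-rich FAKi cells (90.9%), and in 0 of 44 and 0 of 97 of the rest. At full depth it was found in 0 of 55 and 0 of 118 of the rest, for which 3 counts would be 5.45% and 2.54% of cells and the Clopper-Pearson upper limit is 6.49% and 3.08%.

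The Sst-rich cells of α cluster 9 were close to δ cluster 6 in Rbp4 and Hhex and stood apart from it in digestive enzyme transcripts. Rbp4 was at 6311 and 7237 CPM, 1.05-fold the cluster 6 level in both libraries. Hhex was at 384 and 434 CPM, with a ratio to cluster 6 of 0.963 (0.788 to 1.17) and 0.915 (0.777 to 1.07). Prss2, which encodes a trypsinogen, was 74.0-fold higher than in cluster 6 in vehicle and 20.4-fold higher in FAKi, and the lipase gene Pnlip 65.4-fold and 21.1-fold higher. Pooled Ins2 was 4.44-fold and 3.04-fold the cluster 6 level, with median cells of 8348 and 9682 CPM against 1852 and 2872 CPM. Pooled Ppy was 2.43-fold and 4.68-fold and pooled Gcg 1.40-fold and 4.71-fold the cluster 6 level, but the FAKi median cells were closer, at 380 against 250 CPM of Ppy and 812 against 422 CPM of Gcg. Ptprz1 was lower than in cluster 6, with a ratio of 0.508 (0.339 to 0.735) and 0.620 (0.452 to 0.832), and so was Pdx1, an islet transcription factor, at 0.476 and 0.631. The remaining, Gcg-rich cells of α cluster 9 had median Prss2 levels of 3552 and 2708 CPM, near the 3978 and 3688 CPM of the Sst-rich cells. The part of these acinar transcripts in the clustering was not tested.

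β cluster 10 held a different kind of Sst-rich droplet. There were 13 in each library, of 121 and 115 cells. They had a median of 36741 and 37898 UMIs, against 23948 and 26340 in the rest of the cluster. Of them, 5 and 2 were called doublets, against 7 of 108 and 16 of 102 of the rest. The Sst-rich droplets had a median of 321136 and 298738 CPM of Ins2, an insulin gene, beside 43684 and 52672 CPM of Sst. At full depth, 12 of 13 Sst-rich droplets in each library had a Hhex UMI, against 2 of 108 and 3 of 102 of the other cells. With depth made equal at 5000 UMIs, the Hhex share of these droplets was 30.8% (4 of 13) and 25.0% (3 of 12). This lay above the 1.08% and 1.06% of the other cells and below the 84.9% and 87.5% of δ cluster 6. Cluster 8 held 25 Sst-rich cells in each library, which were shallow, with medians of 1565 and 1043 UMIs. Outside Sst-rich cells, Hhex in cluster 8 was at 1.76 and 2.46 CPM. Over all clusters, Sst-rich cells held 85 of 86 vehicle and 81 of 82 FAKi Ghsr UMIs, 71.0% of Rbp4 UMIs in both libraries, and 30.9% and 59.5% of Hhex UMIs. The Hhex shares also depend on the number of ductal cells, 498 in vehicle and 156 in FAKi. Ductal cells held 2170 of 3656 and 898 of 2565 Hhex UMIs.

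**Figure D3:**
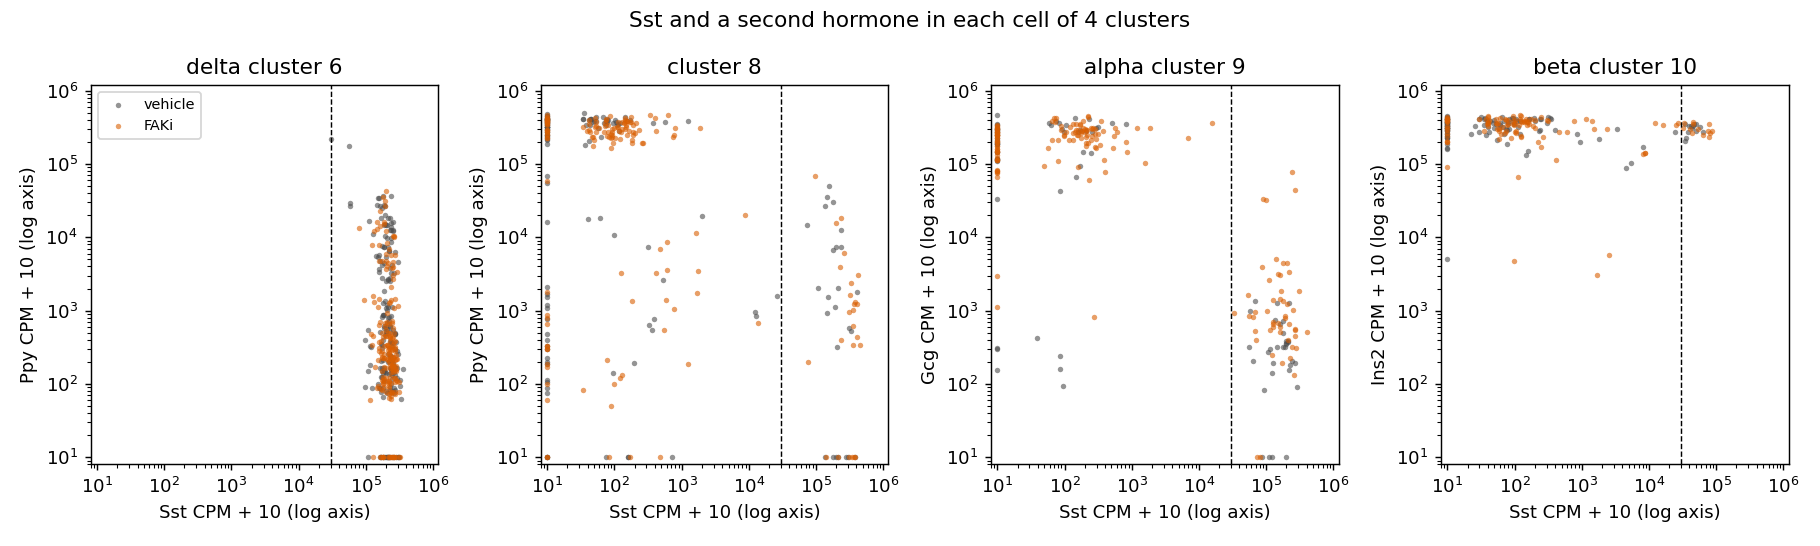
Each point is 1 cell of δ cluster 6, cluster 8, α cluster 9 or β cluster 10, with its Sst level on the x axis and Ppy, Gcg or Ins2 on the y axis (CPM + 10, log axes), vehicle in grey and FAKi in orange. The dashed line is the limit of 30000 CPM: in α cluster 9 the cells right of it have median Gcg levels of 307 and 812 CPM, and in β cluster 10 they keep 321136 and 298738 CPM of Ins2.

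The 4 genes lay within 2-fold between the FAKi and vehicle libraries in the δ class. In the δ class, Sst was at 107072 CPM in FAKi and 108920 CPM in vehicle, a ratio of 0.983 (0.979 to 0.987). Rbp4 had a ratio of 1.08 (1.06 to 1.11), Hhex 1.12 (1.03 to 1.22) and Ghsr 0.843 (0.598 to 1.19). In cluster 6 alone the ratio was 1.03 for Sst, 1.15 (1.13 to 1.18) for Rbp4, 1.19 (1.09 to 1.30) for Hhex and 0.850 (0.600 to 1.20) for Ghsr. Sst therefore lay below 1 in the class and above 1 in both of its clusters, at 1.03 in cluster 6 and 1.09 (1.07 to 1.11) in cluster 8. Cluster 8, with the lower Sst level, held 2362728 of 4667698 δ-class UMIs in vehicle and 2941948 of 5539439 in FAKi. The median cell followed the pooled Rbp4 level. Its CPM in cluster 6 was 5688 in vehicle and 6481 in FAKi, with quartiles of 4286 to 7222 and 4647 to 8679, so the ranges overlapped broadly. Hhex had medians of 362 and 433 CPM in cluster 6, but 172 CPM in vehicle and 165 CPM in FAKi in the δ class. In Sst-rich cells of any cluster the ratio was 1.21 (1.19 to 1.24) for Rbp4 and 1.26 (1.17 to 1.36) for Hhex. With 1 library per condition, the spread between animals behind these ratios is unknown.

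No member passed 2-fold in either direction. Among the 7973 genes with at least 100 UMIs in the δ class, 0.326% were at least 2-fold higher and 0.226% at least 2-fold lower in FAKi, on the scale of CPM plus 1. In cluster 6 these shares were 0.644% and 0.330% of 6056 genes, and in cluster 8, where only Sst and Rbp4 had enough UMIs to be counted, 0.334% and 0.379% of 4487 genes. The median log2 ratio of the 4 members was 0.05 in the δ class and 0.12 in cluster 6, and that of all genes was -0.05 and -0.04.

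**Figure D4:**
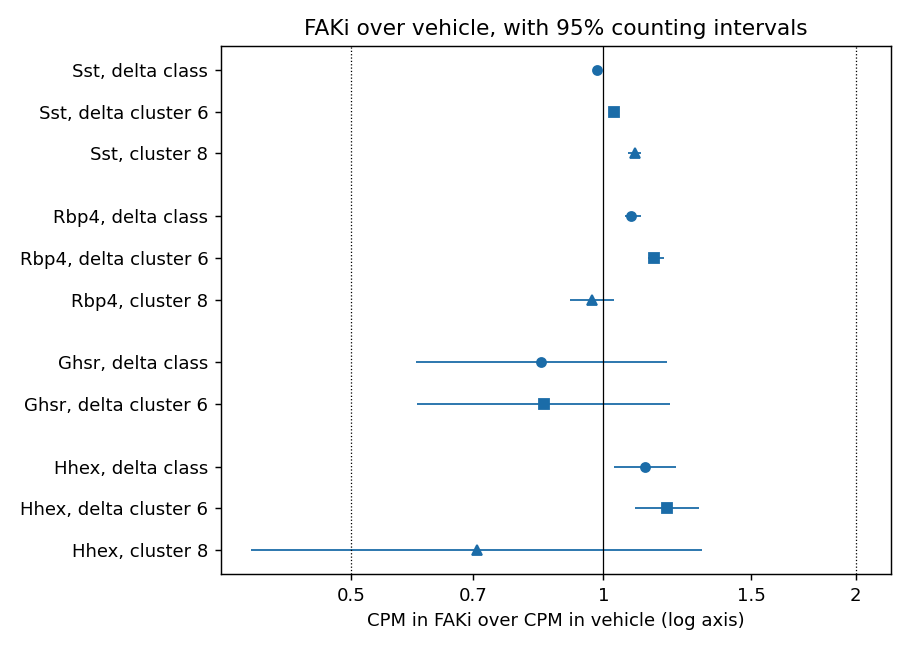
Ratio of CPM in FAKi to CPM in vehicle (log axis) for each gene in the δ class (circles), δ cluster 6 (squares) and cluster 8 (triangles), with 95% counting intervals and dotted lines at 2-fold; Ghsr in cluster 8 is left out for too few UMIs. All ratios lie inside 2-fold, although the interval of Hhex in cluster 8 (0.380 to 1.31) reaches past it. Sst is 0.983 in the class, 1.03 in cluster 6 and 1.09 in cluster 8.

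Genes that work with the members were read from lists in cluster 6. Of 16 further δ-cell genes, 8 had at least 100 UMIs and none passed 2-fold, with a median log2 ratio of 0.10. Spock3, a matrix proteoglycan, was the highest at 61.6 CPM in vehicle and 97.4 CPM in FAKi (ratio 1.58, 1.28 to 1.96), and Efnb3, an ephrin ligand, the lowest at 118 and 97.0 CPM (0.825, 0.692 to 0.983). Ffar4, a fatty acid receptor, was at 81.6 and 76.6 CPM (0.939, 0.766 to 1.15).

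Among receptors for somatostatin, Sstr3 was the one that cluster 6 held at a countable level, at 50.8 and 49.7 CPM (0.978, 0.756 to 1.27). Sstr1 had 9 and 12 UMIs, Sstr2 had 1 and 2, and Sstr4 and Sstr5 were not analysed here. Cort, which encodes the related peptide cortistatin, had 3 and 0 UMIs. On the ghrelin side, Ghrl, the hormone gene, had 1 UMI in each library, and Mboat4, the acyltransferase that activates ghrelin, 2 and 0. Mrap2, an accessory protein of the receptor, had 0 and 2, and Bche, also on this list, 1 and 7. Of the retinol transport genes only Ttr, the plasma partner of RBP4, could be counted, with 33.0 CPM in vehicle and 62.4 CPM in FAKi (1.89, 1.43 to 2.52). Ttr is also known from α-cells, and the median cell had 159 and 422 CPM of Gcg. The part of α-cell RNA in the Ttr ratio was not tested.

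Of the shared endocrine genes counted in cluster 6, none passed 2-fold. Of 13 islet transcription factors, 9 could be counted and none passed 2-fold (median -0.05): Isl1 was at 486 CPM in vehicle and 470 CPM in FAKi, Pdx1 at 116 and 124 CPM, and Insm1 was the lowest at 273 and 191 CPM (0.701, 0.622 to 0.790). Of 11 granule and prohormone genes, 10 could be counted and none passed 2-fold (median -0.11). Pcsk1, a prohormone convertase, was the lowest at 69.4 and 45.8 CPM (0.660, 0.516 to 0.842). Pcsk2, another convertase, was at 2617 and 2290 CPM (0.875, 0.844 to 0.907), and Scg2, a granin, at 3148 and 3267 CPM (1.04, 1.01 to 1.07). Of 10 excitability genes, 9 could be counted (median -0.09), among them Abcc8, the sulfonylurea receptor, at 709 and 668 CPM.

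By measured ratio, the 6 hormones of other islet cells and 4 of 5 acinar markers differed more between the libraries than the members did in cluster 6. This was not tested. The interval of Iapp (1.22, 1.21 to 1.24) lay inside that of Hhex, and that of Pyy (0.770, 0.759 to 0.781) inside that of Ghsr. Ins1 was at 788 CPM in vehicle and 1142 CPM in FAKi (1.45, 1.37 to 1.54), and Ins2 at 2024 and 3101 CPM (1.53, 1.48 to 1.59). Pyy was at 18721 and 14415 CPM and Iapp, islet amyloid polypeptide, at 19135 and 23403 CPM, both present in at least 99.5% of cells. Gcg was at 266 CPM in vehicle and 2037 CPM in FAKi, but 76.1% of the FAKi UMIs were in 1 cell, and the median cell had 159 and 422 CPM. Ppy was at 8245 and 2143 CPM, and 1 cell held 37.2% of the vehicle UMIs. Of 5 acinar markers counted, 4 were at least 2-fold higher in FAKi, with a median log2 ratio of 1.33 over the list. Prss2 was the highest of these, at 64.6 and 179 CPM (2.77, 2.30 to 3.35), and Cela1 was even at 186 and 178 CPM. Their part in the members' ratios was not tested.

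**Figure D5:**
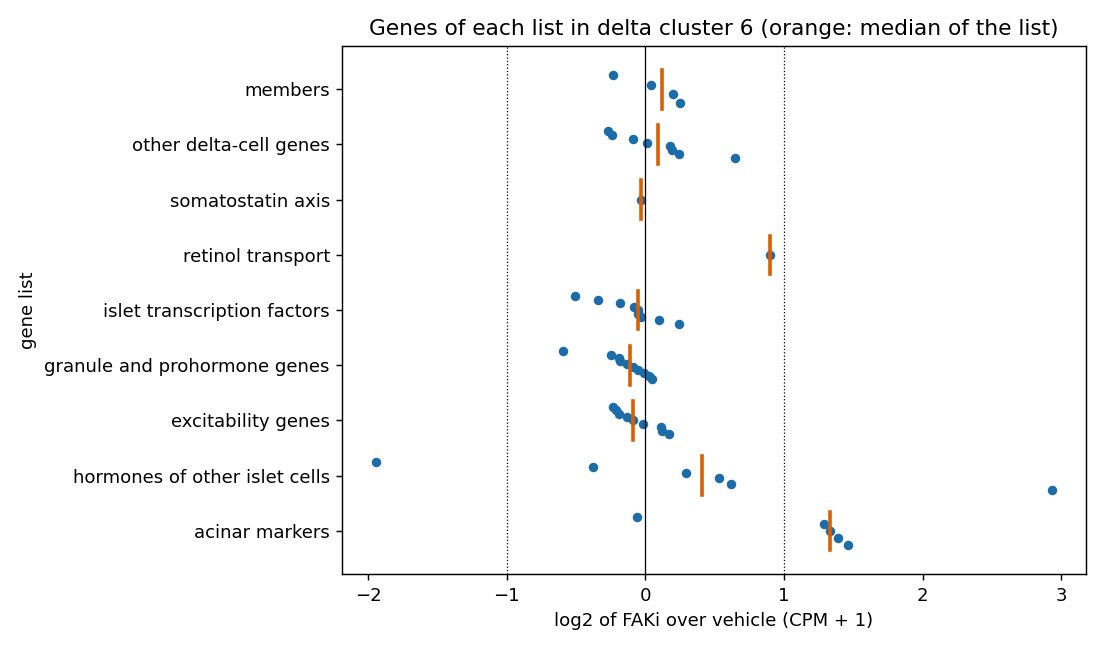
Each point is a gene with at least 100 UMIs in δ cluster 6, placed by its log2 ratio of FAKi to vehicle (CPM + 1) and grouped by list, with the list's median in orange and dotted lines at 2-fold. The 4 members lie between -0.23 and 0.25, while 4 of 5 acinar markers, Gcg and Ppy lie past 2-fold.

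Outside the δ class, ratios of FAKi to vehicle for Sst were dominated by Sst-rich droplets. In all cells the Sst ratio was 0.997 (0.980 to 1.01) in β-cells, 0.922 (0.912 to 0.933) in α-cells and 0.414 (0.391 to 0.439) in ductal cells. Without Sst-rich cells it was 2.55 in β-cells, 2.30 in α-cells, 2.50 in ductal cells, 2.86 in endothelial cells and 3.67 in acinar 1 cells. The low Sst counts left in these 5 classes were thus higher in FAKi. Other hormones differed too. The acinar 1 cells left had 2737 CPM of Gcg in vehicle and 9154 CPM in FAKi, and 104180 and 174421 CPM of Ins2. Gcg in the ductal cells left went the other way, at 3335 and 1845 CPM. The median depth of the acinar 1 class was 1480 and 1140 UMIs. For macrophages without Sst-rich cells the Sst ratio was 1.13, with 48.8% of the vehicle UMIs in 1 cell. Pericytes were lower at 0.271 (0.192 to 0.374), with 84.6% of the vehicle UMIs in 1 cell. Both ratios thus depend on 1 vehicle cell under the limit. Thinned to 1000 UMIs, 7.69% of vehicle and 19.1% of FAKi macrophages had a Sst UMI, and 5.84% and 19.0% of pericytes. Rbp4 was at 1.01 (0.977 to 1.04) in α-cells and 0.934 (0.800 to 1.09) in fibroblasts, the classes that held it beside δ-cells. Hhex in ductal cells had a ratio of 1.19 (1.10 to 1.29), close to its ratio in δ cluster 6, and 1.05 (0.818 to 1.33) in endothelial cells.

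The low Sst counts were also set against those of Ins2. Leaving out cells rich in either hormone, there were 20.4 Sst UMIs per 1000 Ins2 UMIs in vehicle endothelial and immune cells and 24.4 in FAKi. Across the exocrine, vascular, macrophage, mesenchymal and ductal classes the value ran from 6.07 in vehicle acinar 1 cells to 54.4 in vehicle fibroblasts. Acinar 1 cells were at 26.5 in FAKi, but leaving out hormone-rich cells kept 100 of 161 vehicle and 97 of 297 FAKi cells of this class, and over all its cells the values were 12.1 and 14.5. Rbp4 in fibroblasts stood apart from that, with 182 UMIs per 1000 Ins2 UMIs in vehicle and 65.1 in FAKi, against 2.70 and 2.64 in endothelial cells.

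Genes whose level followed the members across classes were found by Pearson correlation of log2(CPM + 1) over 22 points, 11 classes in each of 2 libraries, which share library and depth. For Sst they were Ly6h (0.929), Scn3b (0.893), Ppy (0.887), Rbp4 (0.881) and AW551984 (0.877), of which Ly6h and AW551984 were on the list of Rbp4 too. Rbp4 was most like Smarca1 (0.949) and Sorcs2 (0.918). Ghsr was most like Cfap61 (0.962), followed by Scn3b (0.914), Dpp6 (0.909), Syt1 (0.890) and Ppy (0.880). For Hhex the list was Tspan8 (0.917), Prom1 (0.835), Ston2 (0.831), F2rl1 (0.825) and Spock3 (0.823), none of which was on another member's list. When clusters replaced classes (32 points), Ppy left the lists of Sst and Ghsr and Ptprz1 entered that of Sst (0.814).

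The genes that led the δ class over every other class, by the lower ratio of the 2 libraries, were Sst (7.97), Shisal2b (7.0), Cfap61 (6.33), Kcnc2 (6.10), Dpp6 (5.70), Ly6h (5.55), Tmem132b (4.57), F5 (4.12), Efnb3 (4.02) and Fstl5 (3.93). Kcnc2 encodes a voltage-gated potassium channel and F5 coagulation factor V. Rbp4 ranked 41 (2.28) and Hhex 2504 (0.549) of 5352 genes, and Ghsr had too few UMIs to be ranked. In cluster 6 alone, Sst ranked 4 (3.66) behind Kcnc2 (4.12), AW551984 (3.90) and Pdyn (3.71), the prodynorphin gene, and Rbp4 ranked 53 (2.18). The cluster with the next highest Sst level was α cluster 9.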

How the data were processed

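Islets of vehicle-treated and FAKi-treated mice were profiled with a droplet kit that reads the 3′ end of each transcript. The authors aligned to mm10, made gene-by-cell matrices with Cell Ranger, filtered cells with Seurat 3.1 and integrated and clustered them, and their class names were used as given. The deposited counts are raw UMIs per gene and cell, and the deposited percent of mitochondrial counts came with them. The deposited annotation also gives the library, cluster and class of each cell. The 8 deposited samples are 4 lanes of each of 2 libraries. Lanes were not told apart in the table and were read as 1 library.

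From the counts, UMIs were summed per class, cluster and library and divided by the group's total. Levels have exact Poisson, shares Clopper-Pearson and ratios exact conditional binomial 95% intervals. These cover counting error only, since UMIs of cells from pooled mice carry no animal-level spread. Cells were thinned to 5000 UMIs without replacement. Doublets were called per library with scrublet in scanpy 1.11.5 (numpy 2.4.6, scipy 1.17.1), which marked 1.80% of vehicle and 1.79% of FAKi cells, and were kept in unless stated. List ratios used a pseudocount of 1 CPM and genes with at least 100 UMIs. Interval and thinning code was tested on simulated data. Libraries held 59514118 and 57836783 UMIs. Genes were named by rule: the 4 members, the genes of the lists, the 5 genes most like each member (at least 500 UMIs) and the 10 leading genes of the δ class (at least 200 UMIs). The genes leading cluster 6 and cluster 8 were added after their values were seen. The members and lists were chosen with earlier results of these data known. The limit for Sst-rich cells was planned as the lowest decile of the δ class, which came to 0 CPM, so 30000 CPM was used instead. Alternatives changed scaling, doublets, depth, mitochondrial share and background.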

Additional observations from a re-analysis of the deposited data

Results flagged for a closer look

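Some members had a FAKi to vehicle ratio that rounded to 2-fold or more in either direction in 1 class while their ratio in the δ class lay on the other side of 1. The difference between the classes was not tested, as each condition is 1 library. Sst had a ratio of 2.0 in acinar 1 cells (just under 2 before rounding), 5.28 in fibroblasts and 29.6 in macrophages, against 0.983 in the δ class. Set against cluster 6 (1.03) or cluster 8 (1.09), these Sst ratios lay on the same side of 1 and would not be flagged. In FAKi macrophages 96.2% and in FAKi fibroblasts 90.4% of Sst UMIs were in 1 cell, and without Sst-rich cells the ratios were 1.13 and 1.61. The value of 1.13 still depends on 1 vehicle macrophage under the Sst-rich limit, which held 48.8% of the vehicle UMIs. In acinar 1 cells 77.7% of the vehicle UMIs were in 1 cell, and without Sst-rich cells the ratio was 3.67. Rbp4 had a ratio of 0.308 in endothelial cells against 1.08 in the δ class, and 1.31 without Sst-rich cells.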

How the results depend on the processing

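Depth limits Ghsr most, with 168 UMIs in all. No paired analysis was possible because the lane numbers shared by the groups mark lanes of 1 library and carry no columns of their own. The δ-class ratio of FAKi to vehicle moved outside its counting interval as follows; the cause was not tested. For Sst (0.983) it was 1.03 as a mean over each cell's CPM, 1.00 without the 20 most abundant genes in the total, 0.974 without doublet calls, 0.970 after thinning, 1.03 in cluster 6 and 1.09 in cluster 8. For Rbp4 (1.08) it was 1.05 as a mean over cells, 1.15 in cluster 6, 0.970 in cluster 8 and 1.21 in Sst-rich cells. For Hhex (1.12) it was 1.03 as a mean over cells, 0.707 in cluster 8 and 1.26 in Sst-rich cells. Ghsr (0.843) stayed within its interval in each alternative run. Cluster 6, cluster 8 and the Sst-rich limit of 30000 CPM were chosen after seeing the data.

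By measured level the δ class stayed above 11 other classes for Sst, Rbp4 and Ghsr (8 of them with no Ghsr UMI; in the 9 FAKi B cells 3 UMIs would be 39.1 CPM, above the δ level of 12.8 CPM) and above 10 for Hhex in each change of scaling, doublets, depth, mitochondrial share and background, and cluster 6 alone stood above all 11 for Hhex. Of 25 member and class pairs outside the δ class with at least 50 cells and over 3 UMIs in each library, which leaves out T and B cells (28 and 9 FAKi cells; Rbp4 0.238 and Hhex 0.104 in T cells, Hhex 0.413 in B cells), 4 were at least 2-fold higher in FAKi (4 to 6 in the alternatives) and 4 at least 2-fold lower; the latter was 2 as a mean over cells, 2 without doublet calls, 2 after thinning (22 pairs) and 1 without Sst-rich cells (24 pairs). Some ratios turned over, and the cause was not tested. Sst went to 2.50 in ductal and 2.86 in endothelial cells without Sst-rich cells, to 3.55 in endothelial cells without doublet calls, and with under 5% mitochondrial counts to 0.162 in fibroblasts, 5.93 in pericytes and 0.920 in macrophages. In pericytes it went to 1.04 as a mean over cells. Rbp4 in endothelial cells went to 1.01 as a mean over cells, 1.04 without doublet calls and 1.31 without Sst-rich cells.

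Genes past 2-fold in the δ class numbered 26 higher and 18 lower. They were 13 and 5 with a pseudocount of 10 CPM, 76 and 92 with at least 20 UMIs, and 132 and 168 with no filter, and 15 were higher in cluster 8. List genes past 2-fold, 0 each way, became 1 higher at 20 UMIs, 1 higher with no filter, 2 lower without doublet calls, 5 higher and 1 lower in cluster 6, and 2 lower in cluster 8. Thinned to 1000 in place of 5000 UMIs, the share of δ-class cells with a UMI was 66.8% in FAKi for Sst (75.8%), 76.5% and 75.8% for Rbp4 (97.1% and 95.2%), 1.59% and 2.33% for Ghsr (9.39% and 8.92%), and 23.5% and 23.3% for Hhex (56.0% and 54.5%). Of the 5 genes most like a member, a pseudocount of 10 CPM kept 3 for Rbp4 and 3 for Hhex, a filter of 100 UMIs kept 1 for Ghsr and 3 for Hhex, and clusters in place of classes kept 2 for Sst, 3 for Rbp4, 3 for Ghsr and 1 for Hhex. The planned Sst limit took in all 3448 vehicle and 2825 FAKi cells outside the δ class; the median of the δ class took in 16 and 24, the lowest decile of cluster 6 took in 18 and 30, and 30000 CPM took in 56 and 72, or 47 and 70 without doublet calls.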
